A study of Mus musculus with 20 samples.

Results

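This report describes what side population cells of 2 mouse tissues had in common when each was set against the main population of its own tissue. All 20 arrays of the series entered the comparison: 5 of muscle side population (SP) cells, 5 of muscle main population (MP) cells, 5 of bone marrow SP cells and 5 of bone marrow MP cells. The cells came from adult C57BL/10SnJ mice, for which the labels name no transgene or treatment, and total RNA was measured on 1 array a sample. The contrast for each probe set was the mean of both SP groups minus the mean of both MP groups, with tissue as a factor, on log2 signal. Of 12422 probe sets that were not array controls, 10310 had enough signal to be tested, and 9095 of those carried a single gene symbol, for 7295 genes. The labels give neither the sex of the mice, nor the sorting gates, nor whether replicates came from separate mice or sorts. The p-values therefore measure the spread between these arrays, which may be technical. Each array averaged a mixed cell suspension, so more cells of a type and more RNA per cell cannot be told apart.

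A side population is defined by dye efflux. Cells are loaded with a DNA-binding Hoechst dye, and those whose ATP-binding cassette (ABC) pumps export it appear as a dim tail beside the brightly stained main population. Abcg2 is the pump best known for this in bone marrow, where the SP is rich in blood stem cells. In muscle the SP is a mixture that includes endothelial and blood-derived cells, and the main population holds satellite cells, the resident myogenic stem cells.

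Signals below 105 (6.71 on the log2 scale) were raised to that floor, so a difference from a group at the floor is smaller than or equal to the true one. Arrays of one group correlated with each other at 0.911 to 0.981. Control probes moved with the SP label in both tissues. For GAPDH, the log2 signal of the 3' probe set over that of the 5' probe set was 1.11 higher on SP arrays averaged over tissues (exact two-sided permutation within tissues, p = 9.4e-04, adjusted over 3 controls 0.00123). That of beta-actin was 1.08 higher (exact permutation p = 1.3e-04, adjusted 3.8e-04), and the spike-in signal was 0.81 higher on the log2 scale (exact permutation p = 0.00123, adjusted 0.00123). These values accompany every SP against MP difference below, and their part in the results was not tested beyond the GAPDH ratio, once as a covariate and once by leaving out the 3 arrays where it was highest. The covariate fit called 174 probe sets higher and 174 lower in both tissues, of which 105 and 120 were also called without the covariate. Without the 3 arrays the counts were 222 and 267, of which 148 and 184 were also called with all arrays.

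Averaged over the tissues, 1441 probe sets were higher in SP than in MP cells (14.0% of those tested) and 1543 were lower (15.0%) at an adjusted p under 0.05 (limma, Benjamini-Hochberg over all 10310 probe sets). They named 1161 and 1287 genes. A change of 2-fold or more was found for 281 of the higher and 418 of the lower probe sets. The median change of all probe sets was 0.03. With values scaled only to a common median, 33.5% of the averaged calls were higher, against 48.3% here, and with no normalization beyond the deposited values the share was 68.5%. The last setting moved the median change of all probe sets to 0.20.

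Bone marrow contributed more of the averaged calls than muscle. Within muscle alone, 526 probe sets were higher (5.10%) and 685 lower (6.64%), while within marrow 1583 were higher (15.4%) and 1530 lower (14.8%). Of the 1441 averaged rises, 881 also passed in marrow but not in muscle, 182 in muscle but not in marrow, 196 in both tissues and 176 in neither. Both tissues passed in opposite directions for the other 6. Of the 1543 averaged falls, the marrow contrast alone passed for 881, the muscle contrast alone for 302, both for 206 and neither for 147, and 7 were opposed.

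**Figure D1:**
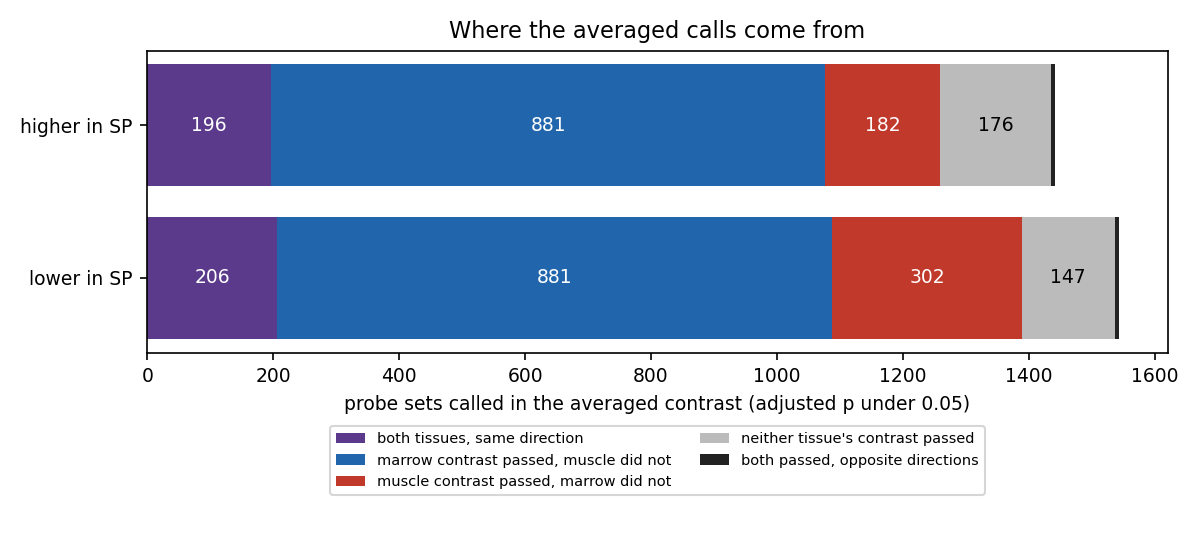
Probe sets called in the averaged contrast, higher in SP (upper bar) and lower in SP (lower bar), split by which tissue's own contrast also passed; the x axis counts probe sets. Calls that passed in marrow and not in muscle form the longest segment of each bar, 881 probe sets, against 196 and 206 called in both tissues.

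A call in 1 tissue and not in the other is not by itself a difference between them, so the difference was tested directly. The tissue difference in the SP against MP change passed for 1912 probe sets, 896 with a more positive change in muscle (8.69%) and 1016 with a more positive change in marrow (9.85%). It passed for 476 of the averaged rises (33.0%) and for 660 of the averaged falls (42.8%). Among the rises called in marrow alone it passed for 396 of 881, and among those called in muscle alone for 50 of 182. The corresponding counts for the falls were 453 of 881 and 172 of 302. The change was larger in marrow for 1069 averaged rises (74.2%) and for 1056 averaged falls (68.4%). The median rise was 0.46 in muscle and 0.94 in marrow on the log2 scale, and the median fall was -0.50 and -0.97. For 102 averaged calls every array of 1 tissue was at the floor, so those calls came from the other tissue by construction; 45 had no muscle signal and 57 no marrow signal above it.

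The common signature was therefore taken as probe sets that passed in the averaged contrast and in each tissue on its own, in the same direction. It held 196 probe sets that were higher in SP cells (154 named genes, 1.90% of those tested) and 206 that were lower (180 named genes, 2.00%). The common rises were 37.3% of the muscle rises and 12.4% of the marrow rises, and the common falls were 30.1% and 13.5%. In both tissues the change was at least 2-fold for 78 of the rises and 92 of the falls. The SP and MP arrays did not overlap in either tissue for 103 and 119 of them, where 1.23% and 1.26% of all tested probe sets separated in that way. The 12 largest rises and 12 largest falls named by rank below were picked from those. The separation of their arrays, as for Ccl5, Ifng, H2-Aa, Blnk, Cd63, Lyve1 and Gsn, therefore followed from the choice. The median common rise was 0.99 in muscle and 1.13 in marrow, and the median common fall was -1.09 and -1.28. The tissue difference still passed for 24 common rises and 28 common falls. Scaling only to a common median left 127 common rises.

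**Figure D2:**
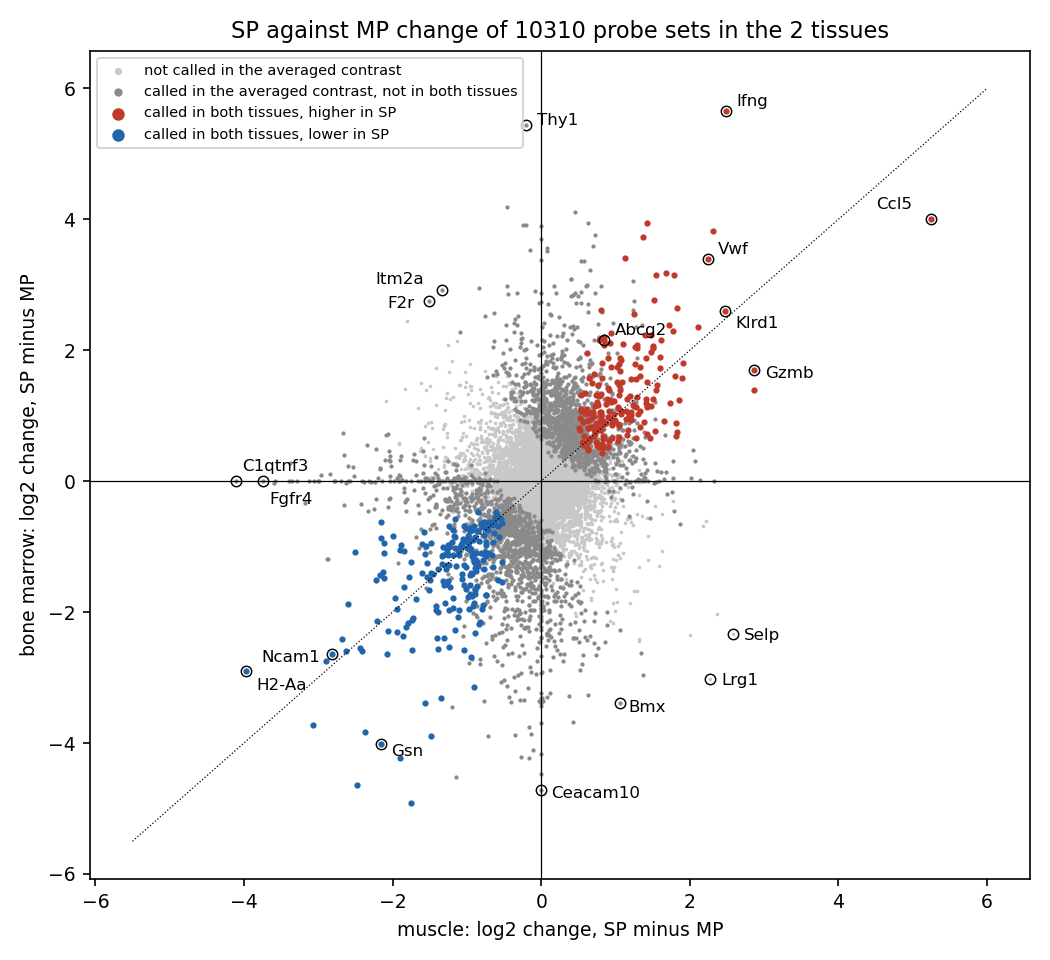
Change of each of the 10310 tested probe sets in muscle (x axis) and bone marrow (y axis), as log2 of SP minus MP; red and blue points passed in both tissues, dark grey points passed in the averaged contrast only or with 1 tissue, and the dotted line marks equal change. Over all probe sets the changes in the tissues correlated at 0.228 across probe sets, which are not independent replicates; Ccl5 and Ifng lie far out in the upper right, H2-Aa and Gsn in the lower left, and Thy1, Fgfr4 and Ceacam10 lie on or near an axis.

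The pump that defines the side population was higher in SP cells of both tissues. Abcg2 read 14.13, 14.07, 13.96, 14.71 and 15.00 on the muscle SP arrays and 13.47, 13.44, 13.60, 13.38 and 13.74 on the muscle MP arrays (log2 signal). It read 11.08, 12.11, 11.71, 12.71 and 12.40 in marrow SP cells and 9.68, 9.92, 9.92, 9.79 and 9.88 in marrow MP cells. Every SP array lay above every MP array of its tissue. The averaged rise was 1.51 ± 0.18 on the log2 scale (SE, n = 5 arrays a group; limma, adjusted p = 1.5e-06), 0.85 in muscle and 2.16 in marrow, and the tissue difference passed (limma adjusted p = 0.0104).

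Abcg2 was the single member of 24 tested ABC transporter genes called in both tissues. In the averaged contrast 6 of the 24 rose and 2 fell, where 14.5% and 15.6% of all 7295 genes did, each gene taken at its brightest probe set, and the list's median change was 0.12 against 0.03 for all genes. In muscle 4.93% of all genes rose and 7.50% fell, and in marrow 16.5% and 14.9% did. In both tissues 1.82% rose and 2.14% fell. These shares stand beside the counts of every list below. Abca1, a cholesterol exporter, rose by 1.11, and Tap1, which carries peptides for MHC class I, by 0.92. Abcb1a, a P-glycoprotein gene that also exports dyes, had an averaged change of 0.74 ± 0.27 (SE, n = 5 a group; limma adjusted p = 0.0455), which lost its call in 19 of the 33 alternative fits. Abcb1b, the second P-glycoprotein gene, did not pass averaged (0.55, limma adjusted p = 0.0535), with -0.39 in muscle and 1.50 in marrow.

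Genes of cytotoxic T and natural killer (NK) cells rose in SP cells of both tissues, and the averaged rises of Ccl5 and Ifng were the largest among the named common genes, ahead of Vwf (2.82). Of 22 tested genes in that list, 17 rose and none fell in the averaged contrast, and 8 rose in both tissues, where 1.82% of all genes did, while Il18rap fell in marrow (-1.17). The list's median change was 1.49 averaged, 1.02 in muscle and 1.66 in marrow. Ccl5, a chemokine of activated T and NK cells, read 13.81, 14.55, 15.43, 10.96 and 11.04 in muscle SP cells against 8.30, 8.17, 7.52, 7.30 and 8.28 in muscle MP cells. In marrow it read 15.84, 15.44, 15.88, 15.07 and 15.25 in SP cells against 11.86, 11.83, 11.70, 10.21 and 11.85 in MP cells. The groups did not overlap in either tissue, but muscle SP arrays 4 and 5 lay far below the other 3. Its averaged rise of 4.62 ± 0.44 (SE, n = 5 a group) was 24.6-fold (limma adjusted p = 1.0e-07).

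Ifng, which encodes interferon gamma, was at the floor on all 5 muscle MP arrays and read 8.88, 10.11, 9.89, 8.40 and 8.75 in muscle SP cells. In marrow it read 12.44, 12.02, 13.57, 13.48 and 13.73 in SP cells and 6.85, 8.51, 7.73, 7.14 and 6.71 in MP cells. No SP array came down to the level of an MP array of its own tissue. The rise in marrow (5.66) exceeded that in muscle (2.49), with a tissue difference that passed (limma adjusted p = 1.7e-04). Klrd1, an NK receptor subunit, was also at the floor on every muscle MP array and rose by 2.53 averaged, with 2.47 in muscle and 2.60 in marrow. Gzmb, a granule protease that kills target cells, rose by 2.87 in muscle and 1.70 in marrow. The other members that rose in both tissues were Klra7 (2.03 averaged), Gzma (2.13), Fasl (1.73) and Il18r1 (1.29). Klra7 and Gzma were read by probe sets marked as able to bind related transcripts, so family members may contribute to their signal.

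T cell genes moved the same way, with marrow carrying more of the calls. Of 20 tested, 15 rose and none fell averaged, and 5 rose in muscle (4.93% of all genes), 14 in marrow (16.5%) and 4 in both. Those 4 were Gata3, a transcription factor of T and innate lymphoid cells (2.27 averaged), the costimulatory receptors Cd28 (1.46) and Cd27 (1.34), and Cd7 (0.74). Cd3e, a subunit of the T cell receptor complex, was at the floor on all 10 muscle arrays and rose by 3.71 in marrow alone. Zap70 and Txk, kinases downstream of that receptor, rose by 2.76 and 3.05 in marrow, and their muscle differences of 1.25 and 1.24 did not pass (limma adjusted p = 0.0857 and 0.0768). The summed level of the cytotoxic list, on the log2 scale, was 13.06 to 16.01 in muscle SP cells and 12.67 to 12.93 in muscle MP cells, and 16.04 to 16.77 and 13.74 to 13.90 in marrow. In muscle MP cells 6 of its 22 members were at the floor on every array, and in muscle SP cells none.

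**Figure D3:**
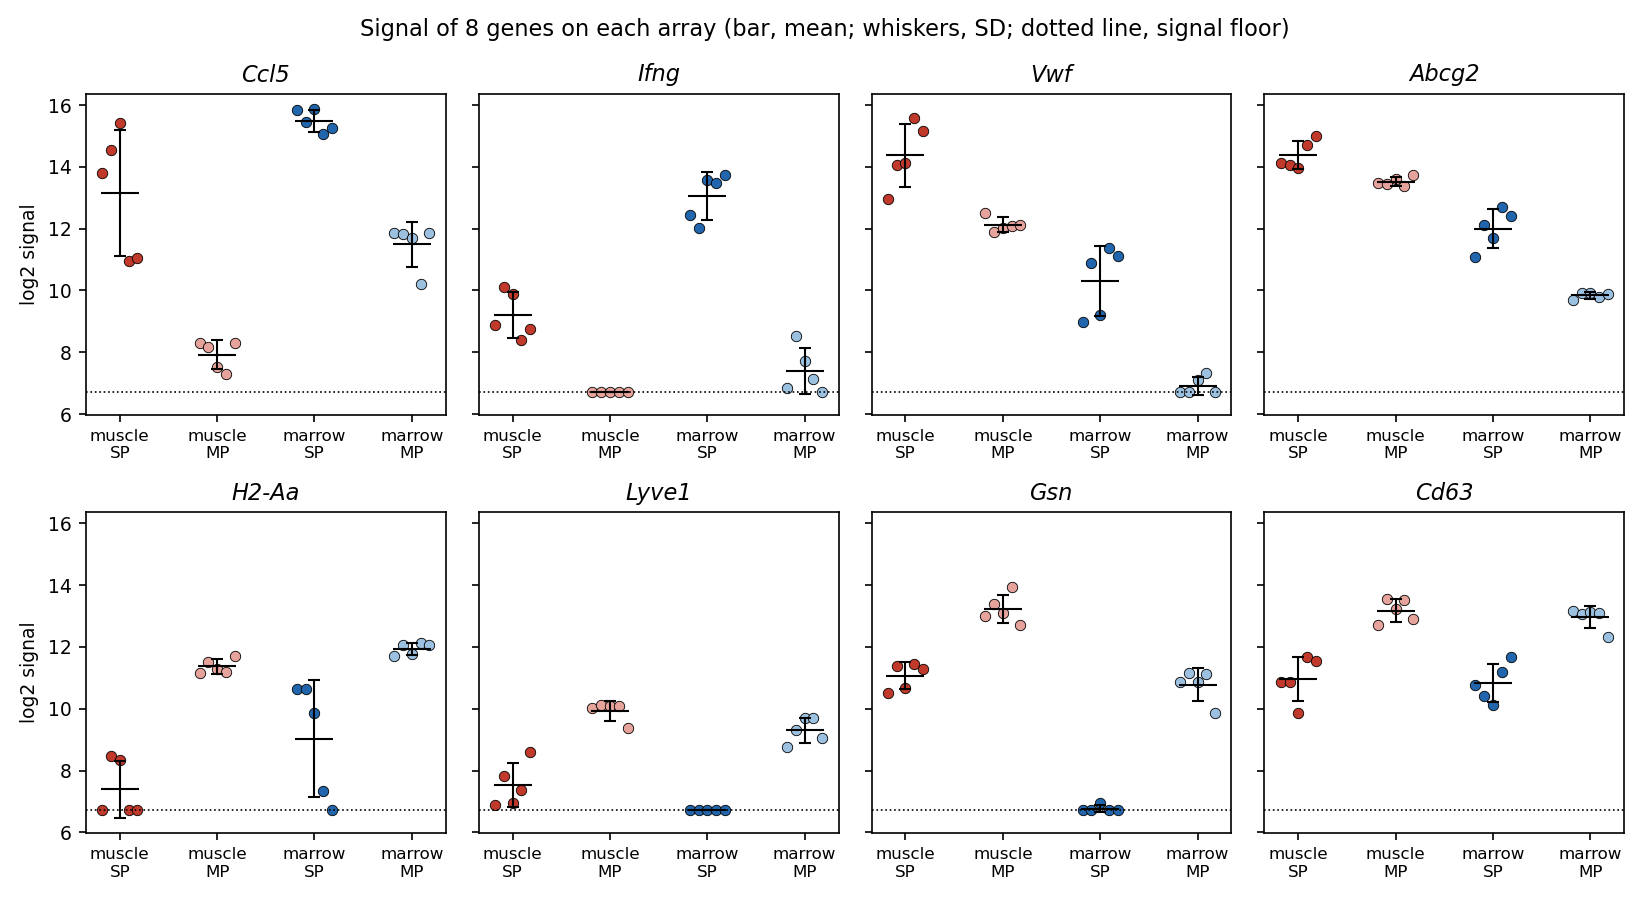
Log2 signal of 8 genes on each of the 20 arrays, by tissue and population; the bar is the mean, whiskers are 1 SD over 5 arrays, and the dotted line is the floor at 6.71. Ccl5, Ifng, Vwf and Abcg2 are higher and H2-Aa, Lyve1, Gsn and Cd63 lower on every SP array than on any MP array of the same tissue, while Ccl5 in muscle SP and H2-Aa in marrow SP cells vary widely between arrays. All but Abcg2 were chosen among probe sets whose SP and MP arrays did not overlap, so their separation followed from the choice.

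Genes for MHC class II molecules, which display peptides on antigen-presenting cells, were lower in SP cells of both tissues. Of 10 tested, 7 fell and none rose averaged, and 3 fell in both tissues (2.14% of all genes did): H2-Aa, H2-Ab1 and H2-Eb1, chains of the I-A and I-E molecules. H2-Aa read 6.71, 8.48, 8.34, 6.71 and 6.71 in muscle SP cells, so 3 of 5 arrays were at the floor, against 11.14, 11.51, 11.30, 11.19 and 11.71 in muscle MP cells. In marrow it read 10.64, 10.63, 9.86, 7.33 and 6.71 in SP cells and 11.70, 12.05, 11.77, 12.12 and 12.05 in MP cells. The groups stayed apart in each tissue, although marrow SP arrays 4 and 5 were far lower than the other 3. Its averaged change was -3.44 ± 0.42 (SE, n = 5 a group; limma adjusted p = 2.3e-06). H2-Ab1 fell by 2.50 and H2-Eb1 by 1.80 averaged. H2-Ob, a chain of the H2-O molecule that restrains peptide loading, fell by 1.71 averaged, passing in marrow (-2.36) and not in muscle (-1.05, limma adjusted p = 0.0769).

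Class II genes are known to share a promoter element, the Y box, whose core is ATTGG on the strand of the gene, an inverted CCAAT. It is shown here because these genes moved together. The bases just before the annotated starts of 3 of the genes, all on chromosome 17, are taken from RefSeq on GRCm38.p6, the C57BL/6J reference, with ATTGG in capitals and each written in the direction of the gene.
H2-Aa (chr17:34287824-34287943, minus strand): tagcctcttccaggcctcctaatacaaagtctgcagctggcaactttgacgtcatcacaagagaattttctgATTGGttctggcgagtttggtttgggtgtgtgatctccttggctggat
H2-Eb1 (chr17:34305747-34305866, plus strand): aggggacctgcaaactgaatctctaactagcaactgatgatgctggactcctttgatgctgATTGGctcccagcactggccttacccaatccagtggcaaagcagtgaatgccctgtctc
H2-Ob (chr17:34238785-34238904, plus strand): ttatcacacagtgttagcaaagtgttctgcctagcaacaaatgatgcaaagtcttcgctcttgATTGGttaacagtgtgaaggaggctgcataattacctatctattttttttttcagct
The motif begins 48 bases before the start of H2-Aa, 59 before that of H2-Eb1 and 57 before that of H2-Ob. In the 250 bases before the start it was found on the strand of the gene in 8 of 9 windows of 8 class II genes, against 19.7% of 32851 promoter windows of that length. The window without it was 1 of 2 for H2-DMa. Of the 11 genes in the list, 8 had a window that was used, all on chromosome 17. Windows of list genes on 1 other chromosome were left out by choice, and none of the 32851 windows were left out in that way. On either strand 33.8% of windows held it, and a match is only a match of letters. H2-Ab1 is named only.

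B lineage genes fell in the averaged contrast with a strong marrow share. Of 23 tested, 20 fell and none rose, all 23 fell in marrow, and in muscle 5 of them fell and Ebf1 rose (0.96), where 14.9% and 7.50% of all genes fell in marrow and in muscle. The list's median was -1.46 averaged, -0.27 in muscle and -2.08 in marrow. Blnk, an adaptor of B cell receptor signalling, fell about equally in muscle (-2.63) and marrow (-2.60). It read 7.13, 7.15, 6.72, 6.74 and 7.21 in muscle SP cells against 8.99, 9.51, 9.40, 9.84 and 10.35 in muscle MP cells. Its marrow arrays read 10.14, 9.63, 9.67, 9.64 and 8.30 in SP cells and 11.76, 12.03, 12.24, 12.67 and 11.69 in MP cells, again without overlap. Pou2af1, a coactivator of immunoglobulin genes, fell by 1.35 in muscle and 3.32 in marrow, and Ms4a1 (CD20) by 0.90 and 3.15. Cd79b, a signalling chain of the B cell receptor, fell by 1.11 and 2.08. Ighm, the mu heavy chain, fell by 2.13 averaged on the probe set with the larger change, but of 8 probe sets outside the pair called in both tissues only 1 passed, and their differences ran from 0.39 to -0.54. Igkv6-23, an immunoglobulin light chain segment, fell by 3.11, and its probe set may bind related segments. Irf4, a transcription factor of plasma cells and activated lymphocytes, named after its values were seen, fell by 1.74 and 2.58. The summed level of the B lineage list was 16.90 to 17.39 in marrow MP cells and 15.29 to 15.75 in marrow SP cells, while the muscle ranges overlapped.

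Genes of monocytes and macrophages were the other group of blood cell genes that was lower in both SP populations. Of 24 tested, 15 fell (62.5%) and 1 rose averaged (Itgax), against 15.6% and 14.5% of all genes. In both tissues 6 fell, where 2.14% of all genes did. Adgre1, a surface receptor of macrophages, was at the floor on all 5 muscle SP arrays and on 4 of 5 marrow SP arrays, and fell by 2.08 in muscle and 2.64 in marrow. Mpeg1, a pore-forming protein of phagocytes, fell by 1.40 and 2.40, and Cd14, a receptor for bacterial lipopolysaccharide, by 1.16 and 2.28. Csf1r, the receptor for the growth factor of macrophages, fell more in muscle (1.99) than in marrow (0.84; limma adjusted p of the tissue difference 0.0219). A second Csf1r probe set had a difference of 0.35 and did not pass. Cd68 fell by 1.07 and Fcgr2b by 1.24 averaged. Lyz2 and Ctss, a lysozyme and a cathepsin of macrophages, passed in muscle (-2.89 and -2.87) and not in marrow (-1.18 each). The tissue difference passed for neither gene. Lyz2 read 9.20, 12.09, 11.09, 6.71 and 6.71 in muscle SP cells, which overlapped the muscle MP arrays (11.81 to 12.27). In marrow every SP array of both genes lay below every MP array. The summed level of the list ran from 13.17 to 14.44 in muscle SP and 14.95 to 15.27 in muscle MP cells, and from 15.24 to 16.71 and 17.44 to 17.54 in marrow.

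Lysosomal genes showed part of the same pattern. The 2 lists are not separate, since Ctss and Cd68 belonged to both, and Cd68 fell in both tissues and counts in each. Of 33 tested, 14 fell (42.4%) and 1 rose averaged, against 15.6% and 14.5% of all genes. In both tissues 4 fell, where 2.14% of all genes did. Cd63, a tetraspanin of lysosomes and exosomes, read 10.86, 10.88, 9.85, 11.67 and 11.55 in muscle SP cells against 12.70, 13.54, 13.21, 13.53 and 12.89 in muscle MP cells. In marrow the SP arrays read 10.75, 10.41, 10.10, 11.19 and 11.66 and the MP arrays 13.17, 13.06, 13.13, 13.08 and 12.33. The change was -2.21 in muscle and -2.13 in marrow, with every SP array below every MP array of its tissue. Asah1 (acid ceramidase) fell by 1.16 and Ctsb (cathepsin B) by 0.67 averaged. Another Ctsb probe set passed (-0.82 averaged), while those at -0.06 and -0.51 did not. Ctsk (cathepsin K), a collagen-degrading protease, fell in muscle (-2.04) and did not pass in marrow (-0.27), and the tissue difference passed (limma adjusted p = 0.0180).

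Endothelial genes rose more often than they fell. Of 37 tested, 16 rose (43.2%) and 3 fell (8.11%) averaged, against 14.5% and 15.6% of all genes. The falls were Lyve1, Bmx and Ets1. In muscle 9 rose and 1 fell, and in both tissues 3 rose and 1 fell. In marrow 13 rose and 6 fell, where 16.5% and 14.9% of all genes did. Vwf, the von Willebrand factor of endothelium and megakaryocytes, read 12.96, 14.06, 14.14, 15.56 and 15.15 in muscle SP cells against 12.51, 11.90, 12.02, 12.10 and 12.13 in muscle MP cells. In marrow it read 8.97, 10.89, 9.20, 11.39 and 11.12 in SP cells, and in MP cells 6.71, 6.71, 7.10, 7.32 and 6.71, near or at the floor. Muscle SP arrays 4 and 5, the lowest muscle SP arrays for Ccl5, were the highest for Vwf. Emcn, a sialomucin of venous and capillary endothelium, rose by 1.70 averaged and Eng (endoglin), a co-receptor for TGF-beta family ligands, by 1.47. Other Emcn probe sets (0.38 and 0.69 averaged) did not pass. Tie1, an endothelial receptor kinase, was at the floor on all marrow MP arrays and rose by 2.59 in marrow, while in muscle its difference of 0.82 did not pass (limma adjusted p = 0.0781).

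Lyve1, a hyaluronan receptor of lymphatic endothelium and of some macrophages, fell by 2.42 in muscle and 2.59 in marrow. It read 6.89, 7.81, 6.94, 7.37 and 8.61 in muscle SP cells, 10.01, 10.13, 10.09, 10.10 and 9.36 in muscle MP cells, the floor on all 5 marrow SP arrays, and 8.77, 9.32, 9.69, 9.69 and 9.06 in marrow MP cells. No SP array reached an MP array of its tissue. The endothelial summed level was higher in muscle SP (18.37 to 18.59) than in muscle MP cells (17.98 to 18.13), and in marrow the ranges overlapped. Vegfc, the growth factor of lymphatic vessels, rose by 1.89 averaged, and Icam1, an adhesion receptor for leukocytes, by 1.74.

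Falls of fibroblast and matrix genes came mainly from muscle. Of the 46 tested, 22 fell (47.8%) and 5 rose (10.9%) averaged. Thy1 (2.62) and Timp3 (1.63) were among the averaged rises. In muscle 25 fell and 2 rose, while in marrow 5 fell and 8 rose, where 14.9% of all genes fell and 16.5% rose. The median was -1.06 in muscle and 0.04 in marrow, and the tissue difference passed for 27. The 3 that fell in both tissues were Gsn, Col6a2 and Vcan. Sdc4 and Ncam1 of the myogenic list fell in both as well. Ncam1, the neural cell adhesion molecule, which satellite cells also carry, fell by 2.81 in muscle and 2.64 in marrow. Gsn (gelsolin), which severs actin filaments, read 10.51, 11.39, 10.67, 11.45 and 11.28 in muscle SP cells against 13.005, 13.38, 13.08, 13.92 and 12.72 in muscle MP cells. In marrow SP cells it was at the floor on 4 of 5 arrays (6.96 on the other), against 10.86, 11.16, 10.85, 11.13 and 9.87 in MP cells. The fall was deeper in marrow (4.01) than in muscle (2.16; limma adjusted p of the tissue difference 8.8e-04). Col6a2, a collagen VI chain, fell by 1.43, Vcan (versican), a matrix proteoglycan, by 1.56, and Sdc4, a heparan sulphate proteoglycan of satellite cells, by 1.50 averaged. The summed level of the matrix list was 17.96 to 18.27 in muscle SP and 18.70 to 19.24 in muscle MP cells.

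Some signalling genes were called in both tissues. Of 22 JAK, STAT and SOCS genes tested, 9 rose (40.9%) and 1 fell (4.55%) averaged, against 14.5% and 15.6% of all genes. In marrow 4 fell, where 14.9% of all genes did. In both tissues 4 rose. These were Jak2, a kinase of cytokine receptors (0.75 averaged), and Stat5a, a transcription factor it activates (1.09). The others were Cish, an inhibitor induced by that pathway (1.07), and Il6st, the shared receptor chain of the interleukin 6 family (1.30). A second Il6st probe set (0.09 averaged) did not pass. Cish rose almost equally in muscle (1.04) and marrow (1.10). Among 37 genes of the BMP and TGF-beta pathways there were 7 rises (18.9%) and 5 falls (13.5%), near the 14.5% and 15.6% of all genes, and the 4 that rose in both tissues were Eng, the inhibitory SMADs Smad6 (0.94 averaged) and Smad7 (1.66), and Id3 (0.99), a known target of BMP signalling. Tgfbi of the same list fell averaged (-1.29). Of 19 Notch pathway genes, 7 rose (36.8%) and 3 fell (15.8%) averaged, and the falls were near the 15.6% of all genes. Notch1, a receptor (1.07 in muscle, 1.06 in marrow), and Psen2, a subunit of the protease that releases its active fragment (0.82 averaged), rose in both, while Rbpj, the transcription factor that the fragment binds, fell by 0.98 and 0.94.

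Immediate early genes gave a mixed picture that depended on scaling. The list of 41 immediate early and stress genes had 20 averaged rises (48.8%) and 7 falls (17.1%), against 14.5% and 15.6% of all genes. However, scaling to a common median gave 5 rises and 10 falls, and the GAPDH covariate gave 10 and 3. In both tissues 3 rose and 1 fell. Nr4a2, an orphan nuclear receptor, rose by 2.34 averaged and Nr4a1, its relative, by 1.47, both more in marrow (limma adjusted p of the tissue difference 0.00921 and 0.00225). Junb, an AP-1 subunit, rose by 1.66 on the probe set with the larger change. Gadd45a, a growth arrest gene, fell by 1.31. Of 43 interferon-stimulated and regulatory genes, 11 rose (25.6%) and 3 fell (6.98%) averaged, with 7 falls under median scaling and none with the GAPDH covariate. In muscle 10 rose and 1 fell, where 4.93% and 7.50% of all genes did. In marrow 6 rose and 8 fell, near the 16.5% and 14.9% of all genes. Iigp1 and Psmb8 rose in both tissues. Iigp1, an interferon gamma-induced GTPase, rose by 1.28 in muscle and 2.08 in marrow. Of 39 RNA splicing genes, 14 rose (35.9%) and 4 fell (10.3%) averaged, against 4 and 7 with median scaling. Snrpc, Hnrnpa1 and Sf3b1 rose in both tissues by 0.73, 1.11 and 1.13 averaged. The largest averaged change of a called member was the fall of Snrpd3 (-1.59), and Srsf10 also fell (-1.11).

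Other common genes belonged to none of these groups. Rest, a repressor of neuronal genes, rose by 1.81 in muscle and 1.61 in marrow. Ywhaq, a 14-3-3 protein, rose by 2.23 averaged on 1 probe set, but its other probe sets, with differences of -0.11 and 0.07, did not pass. Cdkn1a, which encodes the cell cycle inhibitor p21, rose by 1.74 and 1.19, and Rgs16, a brake on G protein signalling, by 1.50 and 2.03. Il17ra, a receptor for interleukin 17, fell by 2.68 and 2.41, and Evi2a by 2.07 and 2.30. Scd1, a fatty acid desaturase, fell by 1.57 in muscle and 3.38 in marrow, and Hsd11b1, which activates glucocorticoids, by 1.79 and 2.17. Cdkn1a, Rgs16, Iigp1, Scd1 and Hsd11b1 were named after their values were seen.

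Blood stem and progenitor cell genes rose in the averaged contrast, mostly through marrow. Of 24 tested, 14 rose (58.3%) and none fell averaged, against 14.5% and 15.6% of all genes. In marrow 17 rose and in muscle 2, where 16.5% and 4.93% of all genes did. The tissue difference passed for 14. The list's median was 1.15 in marrow and -0.05 in muscle. Thy1, a surface antigen of T cells and, at low level, of mouse stem cells, was at the floor on all marrow MP arrays and read 12.53, 12.18, 13.45, 11.77 and 10.85 in marrow SP cells. In muscle the groups overlapped, with 9.03, 9.75, 10.59, 9.99 and 9.79 in SP and 10.41, 9.62, 9.98, 10.49 and 9.65 in MP cells. Meis1, Procr, Mllt3 and Cdkn1c, all known from blood stem cells, rose by 3.53, 3.37, 3.08 and 3.91 in marrow, and their muscle differences of -0.15, 0.57, 0.40 and -0.24 did not pass.

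Mecom, a transcription factor gene of stem cells, was the 1 member of that list called in both tissues, at 1.43 and 0.72, but a second Mecom probe set passed the other way (-0.47 averaged, limma adjusted p = 0.00120). Kit, the stem cell factor receptor, did not pass averaged (0.29, limma adjusted p = 0.316), with 1.07 in marrow and -0.49 in muscle. Ptprc (CD45), the antigen of blood cells in general, did not pass averaged or in either tissue (0.16, limma adjusted p = 0.782 averaged). Its muscle SP arrays were split, reading 10.20, 10.695, 11.66, 7.58 and 8.59. Muscle SP arrays 4 and 5 lay below every muscle MP array (8.65 to 9.19) and the others above every one. Ly6a (Sca-1) was not tested. Socs2, an inhibitor of growth hormone and cytokine signalling, and Ski, a repressor of SMAD proteins, also rose averaged (1.74 and 1.25) through marrow, where they rose by 3.08 and 2.15.

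Other averaged changes that came from marrow were the falls of granulocyte genes. Of 28 granulocyte genes tested, 14 fell (50%) and none rose averaged, against 15.6% and 14.5% of all genes. In marrow 18 fell, where 14.9% of all genes did. None passed in muscle in either direction, and the tissue difference passed for 18. Il1rn, an interleukin 1 antagonist, Ceacam10, Prg2, an eosinophil granule protein, and Cybb, the NADPH oxidase subunit of phagocytes, fell by 4.51, 4.71, 4.47 and 3.87 in marrow. Ctla2b and Ctsw, a cysteine protease inhibitor and a cathepsin of cytotoxic cells, rose by 4.11 and 3.94 in marrow, and their muscle differences of 0.45 and 0.62 did not pass. Of 32 ribosomal protein genes tested, 13 rose (40.6%) and none fell averaged, against 14.5% and 15.6% of all genes. In marrow 16 rose, where 16.5% of all genes did. In muscle none rose and 1 fell, and the tissue difference passed for 9. The largest averaged rises were those of Rps7 (0.97), Rpl19 (0.93), Rpsa (0.83) and Rpl32 (0.80), and Rpsa did not pass with median scaling (limma adjusted p = 0.0819). Rpl32 was read near the floor, at 6.71 on every marrow MP array and at most 8.39 on any array. A second Rpl19 probe set went the other way (-0.38 averaged) and did not pass.

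Averaged changes that came from muscle were mainly falls. The 29 myogenic and satellite cell genes tested had 11 averaged falls (37.9%) and 4 rises (13.8%), against 15.6% and 14.5% of all genes. In muscle 13 fell and 2 rose, where 7.50% and 4.93% of all genes did. In marrow 6 fell and 5 rose, where 14.9% and 16.5% did. Ncam1 and Sdc4 were the 2 that fell in both. Fgfr4, a fibroblast growth factor receptor of satellite cells, read 6.71, 7.12, 6.71, 6.71 and 6.71 in muscle SP cells and 10.36, 10.21, 10.55, 10.68 and 10.87 in muscle MP cells, and was at the floor on all 10 marrow arrays. The SP and MP arrays of muscle did not overlap. Calcr, a receptor that marks quiescent satellite cells, and Myf5, a myogenic transcription factor, fell in muscle (-3.59 and -3.39) and were at the floor throughout marrow. Myod1, a myogenic factor of activated cells, did not pass averaged (-0.10, limma adjusted p = 0.640). Its signal was alike in all groups, 8.98 to 9.88 in muscle SP and 8.90 to 9.72 in marrow SP cells. Whether that probe set measures Myod1 was not tested. C1qtnf3 and Adcy2 fell in muscle (-4.11 and -3.59) with differences of 0 and -0.03 in marrow. The rises that came from muscle included Ptk2b, a focal adhesion kinase relative (2.04 in muscle, 0.48 in marrow), Sele (E-selectin; 2.06 and 0.31) and Gjb2, a connexin (2.13 and 0.02).

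**Figure D4:**
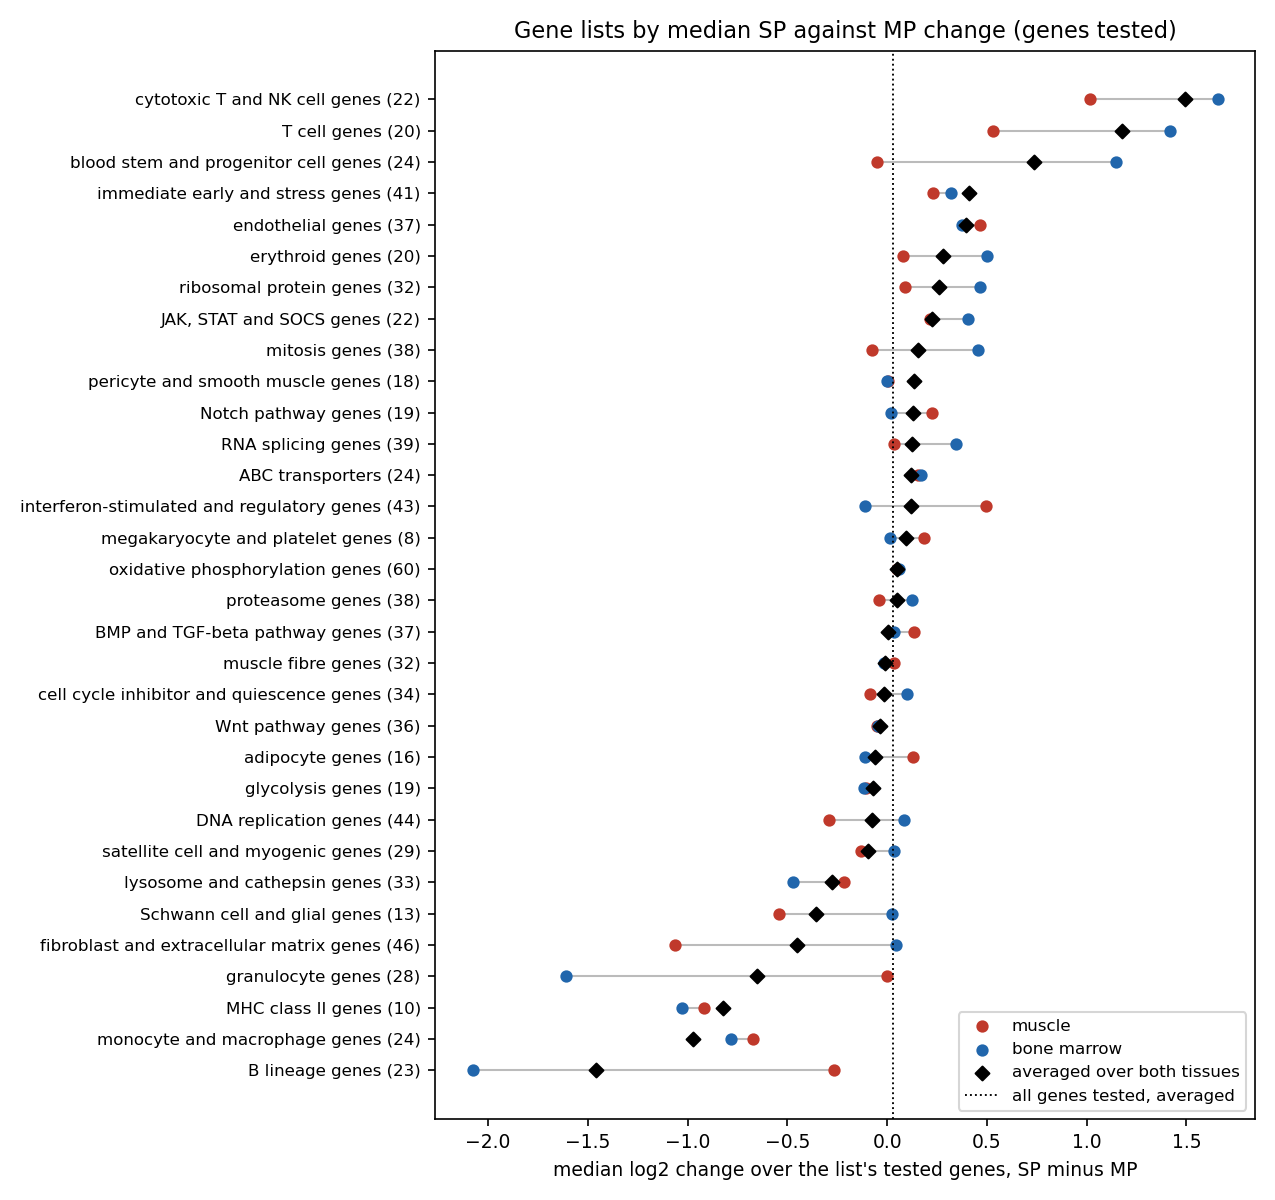
Median change of each gene list in muscle (red), bone marrow (blue) and averaged over both (black diamonds), as log2 of SP minus MP over the list's tested genes, whose number is in parentheses; the dotted line is the median of all genes, 0.03. The cytotoxic list lies to the right in both tissues (1.02 and 1.66) and the MHC class II list to the left, while the stem cell, granulocyte and matrix lists separate the tissues.

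Averaging also removed changes. In 114 probe sets both tissues passed with opposite signs, 54 higher in muscle SP and lower in marrow SP cells and 60 the reverse, and 101 of the 114 were not called averaged. The tissue difference passed for all 114, which the choice of opposed changes made nearly certain. Selp (P-selectin), an adhesion receptor of endothelium and platelets, read 12.73, 12.74, 12.11, 13.77 and 13.91 in muscle SP against 10.55, 10.44, 10.56, 10.49 and 10.31 in muscle MP cells. In marrow it read 6.71, 7.52, 8.77, 6.71 and 6.71 in SP cells against 9.06, 10.22, 10.23, 9.80 and 8.80 in MP cells. The order of the groups was thus turned without overlap in either tissue, and the averaged difference was 0.12 (limma adjusted p = 0.781). Lrg1 changed by 2.28 in muscle and -3.02 in marrow, and Bmx, a TEC family kinase, by 1.06 and -3.40. In the other direction F2r and F2rl3, thrombin receptors, changed by -1.51 and -1.81 in muscle and 2.75 and 2.45 in marrow, and Itm2a by -1.33 and 2.91. Other F2r probe sets, with -0.15 and -0.01 in muscle and -0.29 and 0.04 in marrow, did not show this reversal and did not pass averaged. The fall of Bmx (-1.17) and the rises of F2r (0.62) and Itm2a (0.79) still passed averaged, while Lrg1 (-0.37) and F2rl3 (0.32) did not. In all, 1147 probe sets passed in at least 1 tissue and not in the averaged contrast.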

How the data were processed

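Total RNA of each sample was measured on 1 array of 12488 probe sets with Affymetrix names, 66 of them controls. The deposited values are linear intensity, 1 value per probe set and array. The summary software is not given in the sources used here, but the mean after trimming 2% from each end was 1501 on every array, so the deposited intensities had been scaled. Array medians ran from 319 to 613. Values without controls were quantile normalized, floored at the 25th percentile of all values (105) and put on the log2 scale, for limma 3.58.1 in R 4.3.3; probe sets above the floor on at least 5 arrays were kept. limma fitted a mean for each of the 4 groups, and p-values were adjusted by Benjamini-Hochberg over 10310 probe sets with a threshold of 0.05. A level has no stated depth or detection call, and the 5 arrays a group limit the precision.

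Symbols came from the platform annotation (10833 probe sets with 1 symbol, 396 with several, 1193 with none), and 10817 were matched to RefSeq genes. Each gene in a list was read at its brightest probe set. Named were the 12 largest common rises and 12 largest common falls without overlap of arrays, 3 genes for each tissue and direction carried by 1 tissue, 3 opposed genes each way, up to 4 members of each described list and fixed genes (Abcg2, Abcb1a, Abcb1b, Kit, Ly6a, Ptprc, Thy1, Meis1, Myf5 and Myod1). Further members called in both tissues and the genes marked as such were named after their values were seen. Members and lists were chosen with earlier results of these data known. The fit was tested on simulated data. Of 48 other probe sets of the called named genes, 24 passed in the same direction, 1 in the opposite direction and 23 not at all. Those that did not pass belonged to Cd27, Csf1r, Ctsb, Emcn, F2r, Ighm, Il6st, Mecom, Prg2, Rpl19, Scd1, Ywhaq and Zap70. Probe sets that may bind related transcripts read Blnk, Cd27, Cd68, Ceacam10, Fcgr2b, Gzma, Ighm, Igkv6-23, Junb, Klra7, Meis1, Nr4a2, Psen2, Rhou, Rpl32, Stat5a, Tie1 and Zap70. Replicate numbers were not treated as pairs. Alternatives covered normalization, floor, filter, model, covariates and each array left out; normalizing the control probe sets was added after the data were seen. Python 3.11.15 with matplotlib 3.10.9 drew the plots.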

Additional observations from a re-analysis of the deposited data

Results flagged for a closer look

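Single arrays stood apart from the other 4 of their group by Dixon's test in 40 of 508 groups of values of named probe sets. Chance alone marks about 1 in 20 of normal values, a rate that does not hold for floored values. Where the other 4 arrays were at the floor, any value above it was marked, however small the gap. That was so for Klra7, Vegfc, Gsn in marrow SP, Adgre1, Fgfr4, Cd3e, Fcrla in muscle SP, Meis1, Il18r1, Gzma and Fasl. The values are log2 signals. Muscle SP array 2 held such values for Evi2a (8.07), Fgfr4 (7.12), Pou2af1 (7.99), Fcrla (7.15) and Cybb (7.26). Muscle SP array 3 held such values for Ctla2b (13.21), Gata3 (10.00), Gadd45a (11.67) and Snrpd3 (7.39). Muscle SP array 5 held such values for Meis1 (7.31). On muscle MP array 1 they were those of Gzma (6.83). On muscle MP array 2 they were those of H2-Eb1 (11.60). On muscle MP array 3 they were those of Ptk2b (8.37) and Ctla2b (12.64). On muscle MP array 4 they were those of Klra7 (7.08). On muscle MP array 5 they were those of Lyve1 (9.36), Zap70 (6.71), Nr4a2 (10.17), Il18r1 (7.21) and Ctsb (12.79). Marrow SP array 1 gave Snrpc (10.65). Marrow SP array 3 gave Gsn (6.96), Adgre1 (7.61) and Ly6d (7.62). Marrow SP array 4 gave H2-Ob (6.71) and Sdc4 (8.02). Marrow SP array 5 gave Blnk (8.30) and Igkv6-23 (6.71). For marrow MP array 2 the values were Cd3e (6.78), Ptprc (13.88), Fasl (6.97) and Col6a2 (8.004). For marrow MP array 3 the values were Gadd45a (14.39). For marrow MP array 4 the values were Ccl5 (10.21), Procr (8.62) and Cd14 (14.38). For marrow MP array 5 the values were Vegfc (6.77), Gsn (9.87), Cd63 (12.33) and Fcrla (11.96). Muscle SP array 2 and muscle MP array 5 held 5 each, the most of any array.

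The SP against MP change differed between the tissues for 55 of 124 named probe sets by limma's test of the difference itself (adjusted p under 0.05; 18.5% of all probe sets passed it). Genes named as carried by 1 tissue or as opposed had been chosen partly because they passed it. Each value below is the muscle change minus the marrow change on the log2 scale. Among lymphocyte genes the rise was larger in marrow for Ifng (-3.17), Thy1 (-5.65), Ctsw (-3.32), Ctla2b (-3.66), Gata3 (-2.29), Txk (-1.81) and Cd3e (-3.71), and larger in muscle for Il18r1 (1.09). Among blood stem cell genes the marrow rise exceeded the muscle value for Procr (-2.80), Cdkn1c (-4.15), Mllt3 (-2.68), Kit (-1.57) and Meis1 (-3.67). Among endothelial and adhesion genes the change was more positive in marrow for F2rl3 (-4.26), F2r (-4.26), Itm2a (-4.24), Emcn (-1.81), Tie1 (-1.76) and Timp3 (-2.18), and in muscle for Ptk2b (1.56), Sele (1.76), Gjb2 (2.12), Lrg1 (5.30), Selp (4.92) and Bmx (4.45). Falls larger in muscle were those of C1qtnf3 (-4.11), Fgfr4 (-3.74), Adcy2 (-3.56), Ctsk (-1.77), Calcr (-3.59), Myf5 (-3.39) and Csf1r (-1.15). Falls larger in marrow were those of Gsn (1.85), Il1rn (3.37), Ceacam10 (4.71), Rhou (2.25), Tgfbi (1.12), Pou2af1 (1.96), Ly6d (3.18), Fcrla (3.95), Prg2 (4.47), Cybb (3.51), Ms4a1 (2.25), Cd14 (1.12) and Scd1 (1.82). The pumps and the remaining signalling, splicing and ribosomal genes had more positive changes in marrow: Nr4a2 (-1.50), Nr4a2 (-1.60), Nr4a1 (-1.38), Socs2 (-2.69), Ski (-1.80), Hnrnpa1 (-0.93), Rps7 (-0.97), Rpsa (-1.84), Abcg2 (-1.31) and Abcb1b (-1.90).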

How the results depend on the processing

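The number of common falls (206) stayed within 1.5 times of its value in all 32 alternatives, and that of common rises (196) in all but median scaling (127). With no further normalization, averaged rises numbered 2557 and marrow rises 2894, against 1441 and 1583. With the GAPDH ratio as a covariate, averaged falls numbered 963, against 1543; of the 1927 averaged calls in either direction, 1648 were also called without it. The causes were not tested. Leaving out the 3 arrays of highest GAPDH ratio gave 222 common rises and 267 common falls, of which 148 and 184 were also called with all arrays. Of the 24 common genes named by rank, 22 kept their call in all 32 alternatives; Klra7 lost it with a floor at the 40th percentile and Igkv6-23 with the GAPDH covariate.

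The groups share replicate numbers. Deviations of same-numbered SP and MP arrays of a tissue correlated at r = -0.14 to 0.21, and 1 of 10 had its own number as best partner. Across tissues, between the SP groups and between the MP groups, r was -0.09 to 0.30, and 5 of 10 had their own number as best partner. Across tissues 7 of 10 pairs exceeded 0.1, and within tissues 3 of 10. In none of the 4 comparisons did every pair exceed 0.1, so the numbers were not taken as pairs. That bar does not settle whether arrays of the same number shared mice or sorts. The replicate block gave 246 common rises and 237 common falls, and 1582 averaged rises and 1620 averaged falls.

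Directions turned for genes that had not passed: Myod1 to 0.11 without further normalization, Kit to -0.22 with the GAPDH covariate, and Ptprc to -0.19 with median scaling, -0.25 with the GAPDH covariate and, with 1 array left out at a time, -0.082 (without Muscle SP replicate 3) to 0.43 (without Muscle SP replicate 4). Averaged calls were lost for Rpsa with median scaling (adjusted p = 0.0819), for Lyz2 with the GAPDH covariate (0.0799) and for Abcb1a in many fits, where its limma adjusted p ran from 6.4e-04 to 0.338. Abcb1b passed in some, with limma adjusted p from 0.00521 to 0.874. Signals near the floor give no order, and depth is unknown for arrays.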
